A study of Mus musculus with 8 samples.

Results

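The Trim genes encode tripartite motif proteins, most of which are ubiquitin ligases that join a RING domain, B-box zinc fingers and a coiled coil to a variable carboxyl-terminal part. The members were the protein-coding genes whose symbol is Trim followed by a number, each read from the 1 probe set that the platform annotation gives to that gene alone, and 63 genes met this rule among the 30627 genes measured. All 63 had a single such probe set. RefSeq (GRCm38.p6) lists 68 protein-coding genes with such symbols. Trim17, Trim34a, Trim34b, Trim60 and Trim61 were named by no such probe set and were not analysed here, and the pseudogene Trim30e-ps1 was left out.

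The 8 livers came from male C57BL/6 mice, all fed a high fat diet over 13 weeks, and their RNA was read on a whole-transcript Affymetrix array. The 4 treated mice were given 5 intraperitoneal injections of anti-miR-128-3p, which blocks the microRNA of that name, and the 4 control mice a control injection, called vehicle in 1 label. Another label names miR-128-3p rather than its inhibitor as the injected agent, and the grouping follows the titles. The sources used here do not give the mice's age. An array was read as a separate mouse because the titles number them. The values are log2 RMA signals. The arrays' medians over genes lay between 5.04 and 5.12, the arrays correlated across genes at r = 0.992 to 0.996, and the hepatocyte markers Alb and Apoa1 were at 13.9 and 13.1 in the control livers. With 4 arrays per group the number of livers limits the precision, and in whole liver a change in the number of cells of a type cannot be told apart from a change in RNA per cell.

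Many Trim proteins act in the innate response to viruses. Some of their genes are induced by type I interferon through factors that bind the interferon-stimulated response element, a DNA motif with a repeated GAAA core. Others serve in transcription, the cytoskeleton, muscle or red cell formation. The inhibited microRNA is shown first, with its seed (bases 2 to 8), which pairs with target transcripts, in capitals. RefSeq places the same mature sequence in the genes Mir128-1 on chromosome 1 and Mir128-2 on chromosome 9.

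mmu-miR-128-3p: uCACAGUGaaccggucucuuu

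Promoter stretches of 9 genes are shown: the 8 members in which the groups did not overlap, so that a reader can see which of them hold the motif, and Trim26, whose groups overlapped and which also holds it. The motif is here GAAA, any 2 bases and GAAA again. Each stretch has 90 bases and is written 5′ to 3′ on the strand of its gene, from RefSeq (GRCm38.p6). It runs from 60 bases before the annotated transcript start to 30 bases from the start onward, except that of Trim26, which lies further upstream. Trim30a has a second annotated start, whose promoter also holds the motif. Capitals mark the motif or, where it is on the other strand, its complement (TTTC, any 2 bases, TTTC).
Trim30d, chr7:104507820-104507909, minus strand: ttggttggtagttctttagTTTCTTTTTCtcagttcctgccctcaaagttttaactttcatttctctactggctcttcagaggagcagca
Trim30a, chr7:104465164-104465253, minus strand: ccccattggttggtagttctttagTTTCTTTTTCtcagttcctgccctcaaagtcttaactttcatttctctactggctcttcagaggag
Trim5, chr7:104288077-104288166, minus strand: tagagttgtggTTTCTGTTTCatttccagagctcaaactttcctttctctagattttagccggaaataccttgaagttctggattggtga
Trim12c, chr7:104353320-104353409, minus strand: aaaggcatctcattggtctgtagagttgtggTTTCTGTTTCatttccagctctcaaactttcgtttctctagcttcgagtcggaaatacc
Trim12a, chr7:104315466-104315555, minus strand: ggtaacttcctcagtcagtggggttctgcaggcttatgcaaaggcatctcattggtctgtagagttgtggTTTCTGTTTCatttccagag
Trim21, chr7:102565453-102565542, minus strand: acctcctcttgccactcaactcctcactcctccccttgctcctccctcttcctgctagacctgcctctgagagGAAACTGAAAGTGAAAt
Trim26, chr17:36836956-36837045, plus strand: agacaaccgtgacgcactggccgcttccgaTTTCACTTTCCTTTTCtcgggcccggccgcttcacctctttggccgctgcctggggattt
Trim25, chr11:88999343-88999432, plus strand: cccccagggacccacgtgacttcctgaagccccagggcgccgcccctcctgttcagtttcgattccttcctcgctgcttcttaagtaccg
Trim30b, chr7:104358617-104358706, minus strand: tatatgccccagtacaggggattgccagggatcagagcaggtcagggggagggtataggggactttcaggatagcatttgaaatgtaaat

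The family as a whole was centred on no difference, and its 8 members without overlap between groups were all interferon-linked. The median log2 difference, treated minus control, was 0.01 over the 63 members, against -0.00167 over all genes, and 34 members had the higher mean in treated livers and 29 in control livers (49.1% of all genes had the higher mean in treated livers). The 4 treated values all lay above the 4 control values in 8 members, or 12.7%, whereas 2.52% of all genes did so. In 0 members did they all lie below, against 1.89% of all genes. At an unadjusted limma p under 0.05 there were 11 members higher (4.26% of all genes) and 1 lower (3.37% of all genes). No member passed an adjusted p of 0.05 after Benjamini-Hochberg correction over all genes in limma, which called 0% of the 30627 genes. The smallest adjusted p of a member was 0.202, for Trim30d.

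The interferon-linked list held 14 measured genes of 16 listed. The treated mean was the higher 1 in all 14. Their log2 differences ran from 0.01 to 0.92 around a median of 0.31. The 49 other members had a median of -0.02 and a range of -0.23 to 0.26. All 8 members without overlap and 10 of the 11 at an unadjusted p under 0.05 in the higher direction were on the interferon-linked list. The list was drawn up with earlier results of these data known, so its direction is a description.

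**Figure D1:**
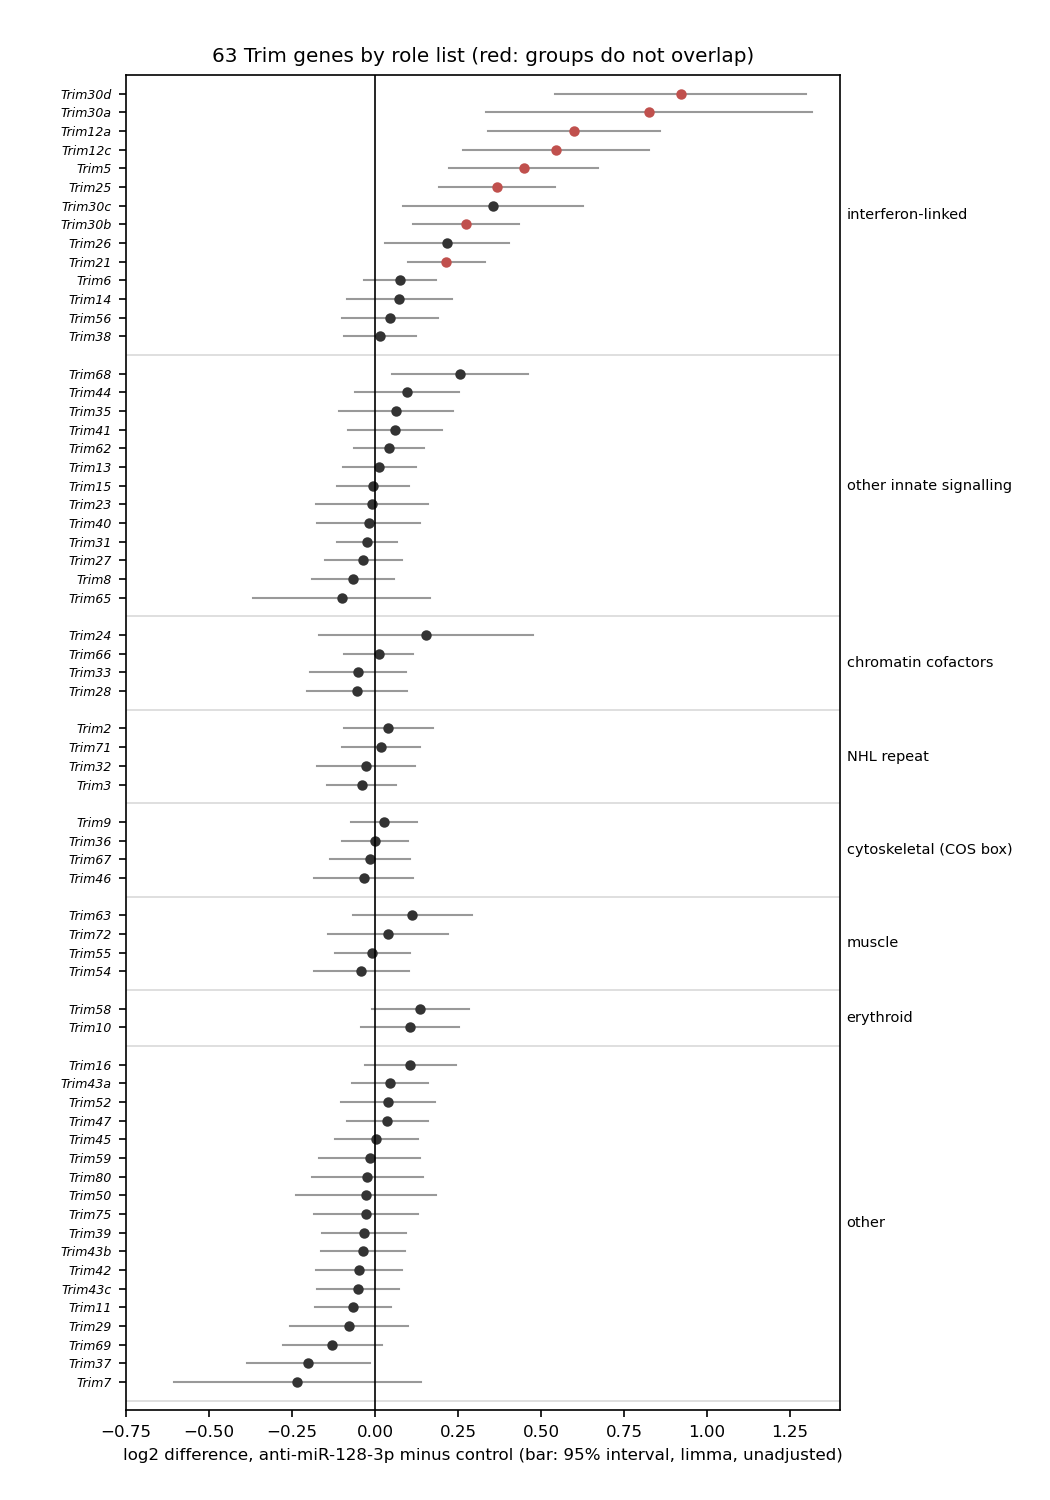
Log2 difference between treated and control livers for each of the 63 Trim genes, grouped by role, with the 95% interval of limma (unadjusted) as a bar. Red points are genes whose 2 groups do not overlap: all 8 are interferon-linked, and most other genes lie near 0.

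Trim30d and Trim30a had the widest differences of the 63 members. Trim30a restrains NF-kB signalling downstream of Toll-like receptors, and Trim30b, Trim30c and Trim30d are its close copies beside it on chromosome 7. Trim30d was at 6.50, 6.46, 6.12 and 6.86 in control replicates 1 to 4 and at 7.17, 7.38, 7.77 and 7.31 in treated replicates 1 to 4 (log2 signal). Every treated liver lay above every control liver, with 0.30 between the nearest of them, and the difference was 0.92 ± 0.17 (log2 difference ± SE, n = 4 each), or 1.89-fold (limma adjusted p = 0.202).

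Trim30a was at 6.14, 6.50, 5.81 and 6.52 in control livers and at 6.84, 6.81, 7.65 and 6.97 in treated livers. The groups were 0.28 apart at their nearest, control replicate 3 was the lowest liver and treated replicate 3 the highest. The log2 difference was 0.82 ± 0.22, or 1.77-fold (limma adjusted p = 0.346). Without both of those livers it was 0.49.

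Trim30b was at 3.58, 3.51, 3.52 and 3.61 in control livers and at 3.82, 3.72, 4.03 and 3.75 in treated livers. The groups did not overlap, but these signals lay below the median of the array's negative control rows, 4.38, so that the difference of 0.27 ± 0.07 (log2 ± SE, limma adjusted p = 0.344) is that of a dim probe set. Trim30c was at 4.19, 4.27, 4.03 and 4.19 in control livers and at 4.54, 4.25, 4.87 and 4.43 in treated livers. Treated replicate 2 lay just below control replicate 2, so the groups overlapped. The log2 difference of Trim30c was 0.36 ± 0.12 (limma adjusted p = 0.517), and without control replicate 3 and treated replicate 3 it was 0.19. The probes of such copies may bind each other's RNA, which was not tested, so the 4 Trim30 values may not be independent of each other.

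Trim5, Trim12a and Trim12c, the mouse relatives of the primate gene whose product blocks incoming retroviral capsids, were also higher in every treated liver. Trim12a was at 6.18, 6.36, 5.99 and 6.49 in control livers and at 6.95, 6.79, 7.004 and 6.68 in treated livers. Its nearest livers of the 2 groups were 0.19 apart, and the log2 difference was 0.60 ± 0.11, or 1.51-fold (limma adjusted p = 0.206).

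Trim12c was at 6.28, 6.67, 6.28 and 6.78 in control livers and at 7.11, 7.06, 7.13 and 6.87 in treated livers. Control replicates 2 and 4 came closest to the treated range, and the log2 difference was 0.54 ± 0.12, or 1.46-fold (limma adjusted p = 0.259). Trim5 was at 5.82, 6.03, 5.80 and 6.13 in control livers and at 6.47, 6.50, 6.43 and 6.17 in treated livers. Treated replicate 4 was only 0.03 above control replicate 4. That gap is narrower than the offset between these 2 arrays, whose medians over genes were 5.10 and 5.06. The log2 difference of Trim5 was 0.45 ± 0.10, or 1.36-fold (limma adjusted p = 0.245). The caution on near-identical copies holds for these 3 genes too.

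Trim25 and Trim21 lie outside that run of genes. Trim25 encodes a ligase that attaches ubiquitin chains in signalling by the RNA sensor RIG-I and also joins ISG15 to proteins. It was at 8.46, 8.53, 8.60 and 8.49 in control livers and at 8.90, 8.88, 8.70 and 9.07 in treated livers. The control livers lay within a narrow band, and the log2 difference was 0.37 ± 0.08, or 1.29-fold (limma adjusted p = 0.228). Its order among livers was unlike that of the Trim30 genes: treated replicate 3, the highest liver for Trim30a and Trim30d, was the lowest treated liver for Trim25, and control replicate 3, the lowest there, was the highest control.

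Trim21, the cytosolic receptor for antibodies on incoming viruses, was at 5.76, 5.82, 5.75 and 5.89 in control livers and at 6.10, 6.02, 5.95 and 6.01 in treated livers. The groups were 0.06 apart at their nearest and the log2 difference was 0.21 ± 0.05, or 1.16-fold (limma adjusted p = 0.295).

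**Figure D2:**
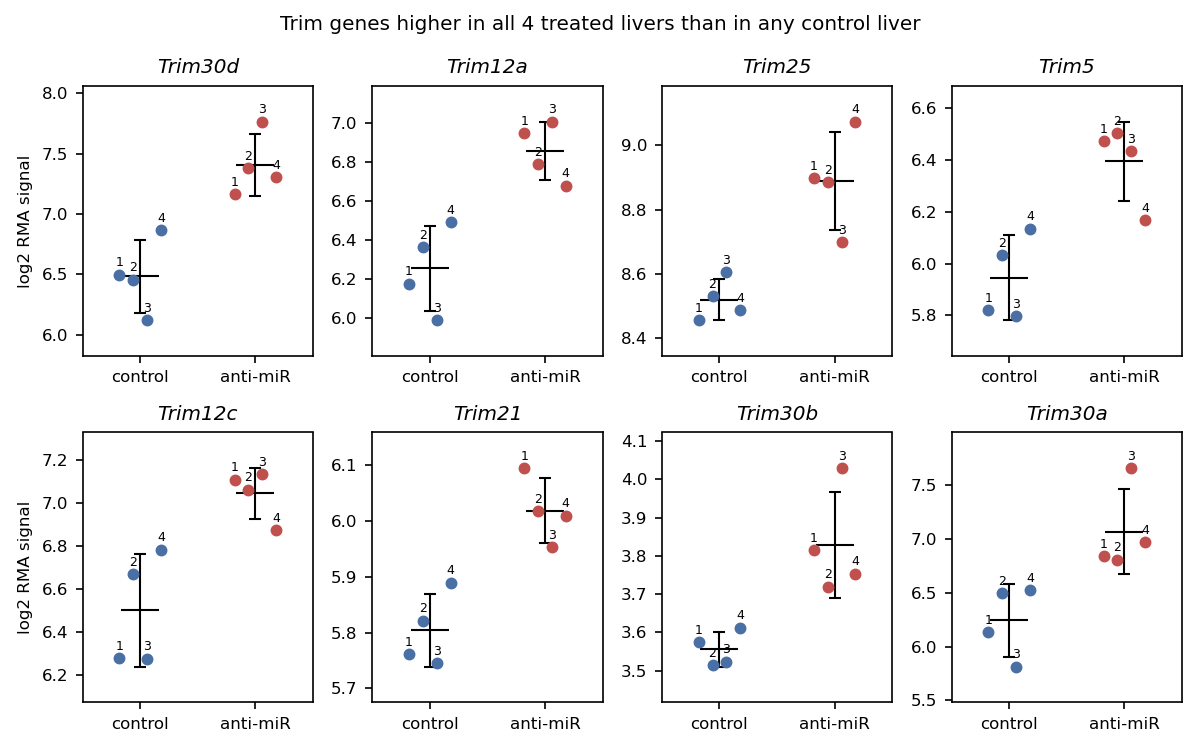
Log2 RMA signal in each liver (points, numbered by replicate) for the 8 Trim genes whose groups do not overlap, with the mean and SD of each group of 4; each panel has its own vertical scale. The gap between groups runs from 0.03 for Trim5 to 0.30 for Trim30d.

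The other interferon-linked members stood less far apart or not at all. Trim26, a ligase that acts on regulators of antiviral signalling, was at 6.997, 7.21, 7.35 and 7.25 in control livers and 7.48, 7.51, 7.29 and 7.38 in treated livers. Treated replicate 3 lay below control replicate 3, and the log2 difference was 0.22 ± 0.08 (limma adjusted p = 0.584). Trim14, a mitochondrial adaptor that lacks a RING domain, was at 8.10, 7.98, 7.90 and 8.12 in control livers and at 8.05, 8.15, 7.98 and 8.21 in treated livers. The groups overlapped, with a 95% interval of the log2 difference from -0.08 to 0.23.

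Trim56, a ligase of the cytosolic DNA sensing route, differed by 0.05 with an interval of -0.10 to 0.19. Trim6, whose product makes unanchored ubiquitin chains in interferon signalling, differed by 0.08 (-0.03 to 0.18), and Trim38, a restraint on Toll-like receptor signalling, by 0.01 (-0.09 to 0.12). The unadjusted intervals of Trim14, Trim56, Trim6 and Trim38, the 4 smallest differences of the list, reach no higher than 0.23 (log2). Those of its 4 widest differences, Trim30a, Trim30d, Trim12a and Trim12c, begin at 0.26 or above. The intervals of the list's other members begin between 0.03 (Trim26) and 0.22 (Trim5), within the interval of Trim14. The signals of Trim6 and Trim38, like the mean of Trim30c, lay below the median of the negative control rows.

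**Figure D3:**
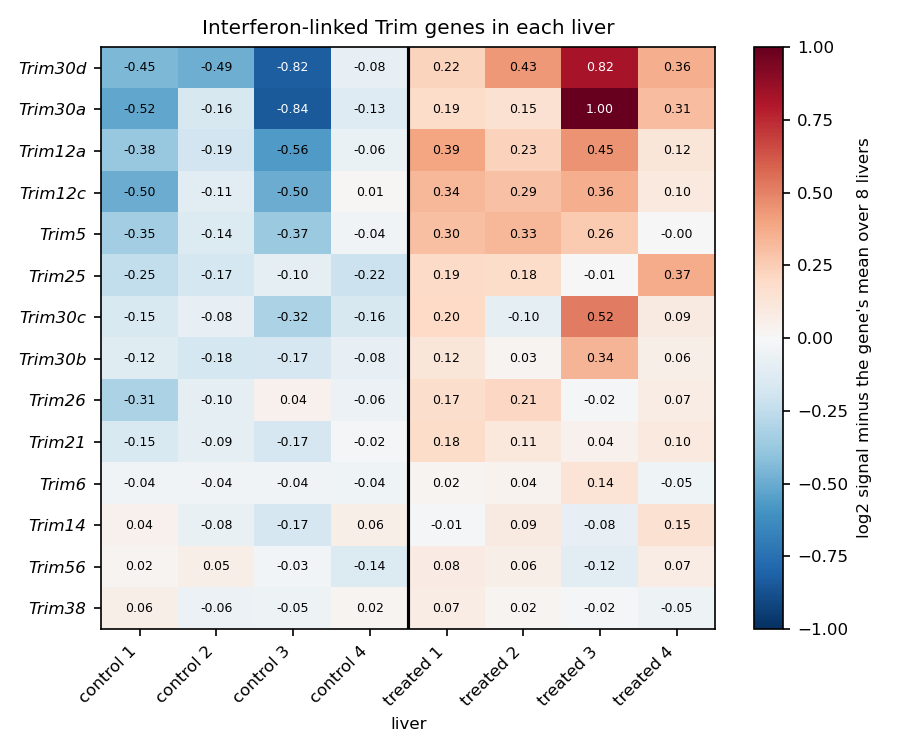
Signal of each interferon-linked Trim gene in each liver, as the log2 signal less the gene's own 8-liver mean (colour and printed value). Control replicate 3 and treated replicate 3 are the extremes for Trim30a and Trim30d, whereas Trim25 is highest in treated replicate 4. Treated replicate 3 is the lowest treated liver for Trim25, Trim21, Trim26, Trim14 and Trim56.

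Markers of other cell types differed among the same livers. The 12 macrophage and Kupffer cell markers, all measured, were higher on average in the treated group in 11 of 12 cases, with a median log2 difference of 0.45. Their mean level, each gene taken relative to its own mean over all livers, was -0.90 to 0.10 in control and -0.33 to 0.73 in treated livers. In replicates 1 to 4 this level was -0.19, 0.03, -0.90 and 0.10 in control and 0.73, -0.33, 0.35 and 0.20 in treated livers. The interferon-linked Trim level, taken in the same way, was -0.22, -0.13, -0.29 and -0.07 in control replicates 1 to 4. It was 0.18, 0.15, 0.26 and 0.12 in treated replicates 1 to 4. The 8 stellate cell and fibroblast markers ranged from -0.37 to -0.14 in control and from -0.09 to 0.85 in treated livers, with the highest value in treated replicate 3. Of these, 5 had the higher and 3 the lower mean in treated livers, and the median difference was 0.11 (log2). The collagen genes Col1a1 (1.62), Col1a2 (1.45) and Col3a1 (1.22) had the widest differences and no overlap, whereas Reln (-0.29), Dcn (-0.10) and Lrat (-0.06) were lower in treated livers. The 6 markers of plasmacytoid dendritic cells, strong interferon producers, ranged from -0.28 to 0.08 in control and from -0.02 to 0.13 in treated livers. Their lowest value was control replicate 1, where Bst2 was at 7.77 against 10.2 to 10.6 in the other 7 livers. The 10 measured lymphocyte markers of 12 ranged from -0.17 to 0.32 and from -0.05 to 0.07. Control replicate 1 also stood apart for the 8 neutrophil markers, at 1.36, with the other controls from -0.41 to -0.18 and the treated livers from -0.37 to 0.003. The 7 sinusoidal endothelial markers ranged from -0.22 to 0.29 in control and from -0.27 to 0.10 in treated livers. Of these, 6 had the lower mean in treated livers, 3 of them (Clec4g, Stab1 and Tek) at an unadjusted limma p under 0.05, and the median log2 difference was -0.20. The part of these cells in the Trim differences was not tested.

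The members that stood apart lay mainly in a run of neighbours on chromosome 7. Trim genes were taken as neighbours when no more than 2 other protein-coding genes lay between them. In RefSeq order the run is Trim6, Trim34a, Trim5, Trim12a, Trim34b, Trim12c, Trim30b, Trim30c, Trim30a and Trim30d, with 8 of these 10 measured. All 8 had the higher mean in treated livers (49.1% of all genes did), and the median log2 difference was 0.50. In 6 of them the treated values all lay above the control values, as in 2.52% of all genes. The mean signals of 3 of the 8, Trim6, Trim30b and Trim30c, lay below the median negative control row. The caution on near-identical copies holds for the Trim5, Trim12 and Trim30 genes of this run. Trim6, at 1 end of the run, differed by 0.08 ± 0.05. The 6 interferon-linked members elsewhere had a median of 0.14, with 2 of the 6 not overlapping. In the other run of more than 3 neighbouring Trim genes, 5 genes on chromosome 17, Trim26 differed by 0.22, Trim10 by 0.10, Trim15 by -0.01, Trim40 by -0.02 and Trim31 by -0.02. All 5 of these overlapped between groups.

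**Figure D4:**
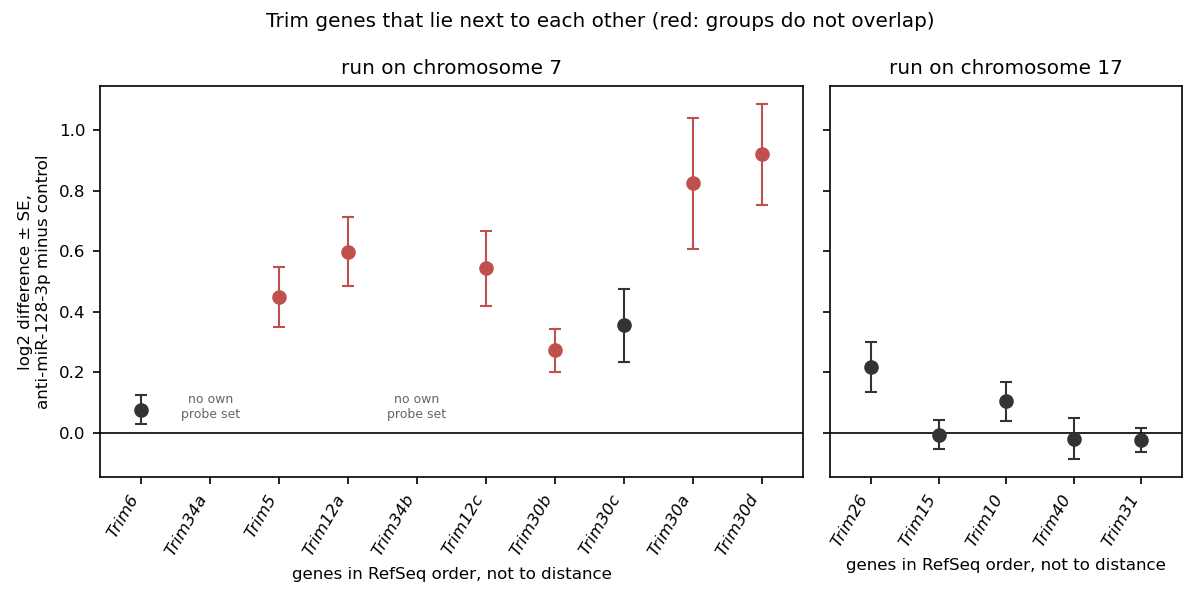
Log2 difference ± SE (limma, 4 livers per group) for Trim genes that neighbour each other. They are in RefSeq order, without distances or other genes that may lie between them, and red marks groups that do not overlap. On chromosome 7 the values run from 0.08 for Trim6 to 0.92 for Trim30d, and on chromosome 17 none exceeds 0.22.

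The promoters of the interferon-linked members held the motif more often than promoters at large. The 300 bases around the start, 250 before and 50 from the start onward, were in the table for 49 of the 63 members and 27025 genes in all. The motif of GAAA, any 2 bases and GAAA was found on either strand in 3.99% of these genes, in 7 of 13 interferon-linked members (53.8%) and in 1 of 36 other members (2.78%), Trim2. Of the 8 members without overlap, 6 had a match: Trim5, Trim12a, Trim12c, Trim21, Trim30a and Trim30d. Trim25 and Trim30b had none in this window, and the seventh interferon-linked match was in Trim26. Copies share their promoters by descent. Over 40 bases placed at the motif, Trim30a and Trim30d were identical at 40 and Trim5 and Trim12a at 40, while Trim5 and Trim12c were identical at 38 and Trim30d and Trim5 at 20. Trim5, Trim12a and Trim12c all read GAAACAGAAA, and Trim30a and Trim30d read GAAAAAGAAA. In Trim21 and Trim26 the motif occurred as 2 overlapping copies. A match describes the letters in the window and not the binding of a factor.

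Among members with other innate signalling roles, 13 were measured, 6 with the higher mean in treated and 7 in control livers, and the median log2 difference was -0.01. Trim68, a ligase first tied to the androgen receptor, was at 5.51, 5.34, 5.40 and 5.68 in control livers and at 5.94, 5.63, 5.69 and 5.69 in treated livers. Only control replicate 4 reached the treated range, and the log2 difference was 0.26 ± 0.09 (limma adjusted p = 0.551). Trim44, which lacks a RING domain and protects partners from degradation, was at 8.16, 8.12, 8.23 and 8.06 in control livers and at 8.23, 8.27, 8.07 and 8.38 in treated livers, with overlap. Trim8, a partner of Socs1, was at 7.47, 7.60, 7.53 and 7.45 in control livers and at 7.38, 7.47, 7.41 and 7.54 in treated livers, also with overlap. The 10 others, Trim13, Trim15, Trim23, Trim27, Trim31, Trim35, Trim40, Trim41, Trim62 and Trim65, differed by -0.10 to 0.06.

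The chromatin cofactors did not stand apart. Trim28 is the corepressor that KRAB zinc finger proteins bring to retroelements, Trim24 is a cofactor of nuclear receptors that restrains liver tumours in mice, and Trim33 acts in TGF-beta signalling. Trim28 was at 7.61, 7.65, 7.73 and 7.67 in control livers and at 7.50, 7.74, 7.50 and 7.69 in treated livers. The treated livers spanned a wider range than the controls and included both extremes, and the log2 difference was -0.05 (95% interval -0.20 to 0.10). Trim24 was at 6.38, 6.96, 6.59 and 6.82 in control livers and at 6.80, 7.01, 6.55 and 7.02 in treated livers. Livers of each group differed by more than the group means, and its log2 difference of 0.15 had an interval of -0.17 to 0.48. Trim33 was at 7.21, 7.15, 7.36 and 7.32 in control livers and at 7.13, 7.29, 7.28 and 7.14 in treated livers, a difference of -0.05. Trim66, a testis-rich relative, differed by 0.01. Of 8 partners of Trim28 in silencing, all measured, 6 had the higher mean in treated livers 0 passed limma's adjusted threshold and 1 was at an unadjusted p under 0.05. The 4 with the smallest p were the Setdb1 cofactor Atf7ip (0.16 ± 0.07), the DNA methyltransferase Dnmt1 (0.12 ± 0.06), the heterochromatin protein gene Cbx1 (0.11 ± 0.06) and Morc3 (0.09 ± 0.07), all log2 differences ± SE.

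The NHL repeat members, ligases that also bind RNA or partners through a propeller-shaped domain, lay within 0.04 of no difference. Trim3 was at 6.87, 6.77, 6.84 and 6.73 in control livers and at 6.72, 6.77, 6.77 and 6.79 in treated livers. Trim2, a ligase that protects axons, was at 6.25, 6.24, 6.18 and 6.09 in control livers and at 6.28, 6.15, 6.16 and 6.32 in treated livers. Trim32, mutated in a limb-girdle muscular dystrophy, was at 5.83, 5.74, 5.82 and 5.86 in control livers and at 5.72, 5.70, 5.76 and 5.97 in treated livers. In each of the 3 genes the groups overlapped, and so did those of Trim71, which differed by 0.02.

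The cytoskeletal members Trim9, Trim46 and Trim67, known from neurons, and Trim36 differed by -0.03 to 0.03. Trim9 was at 3.67, 3.63, 3.67 and 3.57 in control livers and at 3.71, 3.64, 3.64 and 3.67 in treated livers. Trim46 was at 4.97, 4.79, 4.91 and 4.79 in control livers and at 4.86, 4.71, 4.80 and 4.95 in treated livers. Trim67 was at 4.85, 4.74, 4.82 and 4.68 in control livers and at 4.83, 4.74, 4.69 and 4.76 in treated livers. These signals were low on an array whose negative control rows had a median of 4.38, and the groups overlapped throughout.

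The muscle members Trim54, Trim55 and Trim63, ligases of the sarcomere, and Trim72, a membrane repair protein, overlapped as well. Trim63 was at 4.97, 4.73, 4.94 and 4.82 in control livers and at 5.09, 4.83, 4.91 and 5.07 in treated livers. Trim54 was at 5.62, 5.46, 5.58 and 5.50 in control livers and at 5.61, 5.36, 5.51 and 5.51 in treated livers. Trim72 was at 4.42, 4.23, 4.37 and 4.41 in control livers and at 4.54, 4.22, 4.33 and 4.51 in treated livers. Their log2 differences were 0.11, -0.04 and 0.04, and that of Trim55 was -0.01. The 8 muscle markers, such as Ckm, had a median log2 difference of -0.06. The erythroid members Trim58, which acts as red cell precursors lose their nucleus, and Trim10 differed by 0.14 ± 0.06 and 0.10 ± 0.07 (log2 ± SE). Trim58 was at 4.77, 4.55, 4.77 and 4.66 in control livers and at 4.90, 4.72, 4.81 and 4.87 in treated livers. Trim10 was at 4.44, 4.26, 4.22 and 4.24 in control livers and at 4.52, 4.34, 4.35 and 4.36 in treated livers. For both, 1 or 2 control livers reached into the treated range. Of 6 erythroid markers 2 were measured, Alas2 with a difference of 0.04 and Slc4a1 with -0.10.

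The remaining 18 members included the only gene with an unadjusted p under 0.05 in the lower direction, Trim37. This ligase acts at peroxisomes and centrioles. It was at 6.80, 6.93, 7.08 and 7.06 in control livers and at 6.81, 6.92, 6.63 and 6.71 in treated livers. Control replicate 1 lay within the treated range and control replicate 2 just above it, and the log2 difference was -0.20 ± 0.08 (limma adjusted p = 0.616). Trim69, a microtubule-binding ligase, was at 3.64, 3.50, 3.71 and 3.79 in control livers and at 3.61, 3.47, 3.50 and 3.54 in treated livers, a dim and overlapping pair of groups. Trim16, a relative without a RING domain, was at 4.51, 4.47, 4.61 and 4.59 in control livers and at 4.80, 4.59, 4.61 and 4.61 in treated livers. Trim7, which binds the glycogen primer glycogenin, had the most negative log2 difference, -0.23 ± 0.16, with a wide interval of -0.61 to 0.14. The 14 others, Trim11, Trim29, Trim39, Trim42, Trim43a, Trim43b, Trim43c, Trim45, Trim47, Trim50, Trim52, Trim59, Trim75 and Trim80, differed by -0.08 to 0.04. In all, 43 of the 63 members differed by less than 0.1, and 19 had a mean signal below the median negative control row, where a difference in RNA would be hard to see.

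Relatives with other names and the enzymes that supply Trim ligases were set beside the members. Pml, also known as Trim19, builds the Pml nuclear bodies. It was at 7.22, 7.37, 6.97 and 7.36 in control livers and at 7.49, 7.66, 7.61 and 7.62 in treated livers, without overlap and with a log2 difference of 0.37 ± 0.09 (limma adjusted p = 0.323). Among the 9 relatives, all measured, it was the only 1 without overlap (11.1%, against 2.52% of all genes higher without overlap). Mid1, a microtubule ligase, differed by 0.32 ± 0.20, the pyrin gene Mefv by 0.07 and Triml1 by -0.05, all with overlap. Of 20 listed genes of ubiquitin, its activating enzymes and its conjugating enzymes, 14 were measured, with a median log2 difference of -0.01. The 2 without overlap, both higher in treated livers (14.3%, against 2.52% of all genes), were Uba7 and Ube2l6. They encode the activating and conjugating enzymes for ISG15, the ubiquitin-like protein that Trim25 can attach. Ube2l6 was at 7.49, 7.68, 7.41 and 7.74 in control livers and 8.08, 7.99, 7.94 and 7.88 in treated livers, a log2 difference of 0.39 ± 0.08 (limma adjusted p = 0.228). Uba7 differed by 0.42 ± 0.10 (limma adjusted p = 0.295), whereas Uba6, an activating enzyme for ubiquitin, differed by -0.19 ± 0.09 and the conjugating enzyme gene Ube2k by -0.04 ± 0.05.

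Of 21 genes of viral sensing and interferon signalling, 19 were measured, 13 with the higher mean in treated livers, and the median log2 difference was 0.11. In this list 7 genes were higher without overlap (36.8%, against 2.52% of all genes). The ligase gene Traf6 was the only 1 lower without overlap (-0.10), as were 1.89% of all genes. Usp18 (1.66 ± 0.26), the RNA sensor regulator Dhx58 (0.67 ± 0.10), Irf9 (0.44 ± 0.07) and Stat2 (0.30 ± 0.06) had the smallest p (log2 differences ± SE, limma adjusted p = 0.194 for the first 3 and 0.206 for Stat2). Rigi, the gene of the sensor RIG-I itself, differed by 0.56 ± 0.11. The mean level over the 19 genes, each taken relative to its own mean over the 8 livers, was lowest in control replicate 3 (-0.33) and highest in treated replicate 3 (0.28). The same 2 livers were the extremes of the mean level over the 14 interferon-linked Trim members (-0.29 and 0.26), but not gene by gene. Treated replicate 3 was the highest treated liver in 7 of the 14, all in the chromosome 7 run. It was the lowest treated liver in 5, all outside that run: Trim25, Trim21, Trim26, Trim14 and Trim56.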

How the data were processed

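Liver RNA of 4 control and 4 treated mice was measured on 8 arrays. The deposited values are log2 signals made by the authors with RMA (background correction, normalization and probe set summary), per the submitters' processing notes; the sources used here give no version or annotation build. Of 72688 rows, 6732 array controls were left out. Of the 65956 transcript probe sets the platform annotation lists 32750, and 31080 of these name exactly 1 gene, with symbols updated through RefSeq (GRCm38.p6) by Entrez ID. For the 357 genes with several probe sets the probe set of highest average signal was taken, leaving 30627 genes.

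Treated and control livers were compared with limma 3.58.1 in R 4.3.3 (lmFit, eBayes, two-sided, no covariate, no filter) and Benjamini-Hochberg adjustment over all genes at 0.05. The step was tested on simulated data. A gene's groups do not overlap when all 4 values of 1 group exceed all 4 of the other. Tables and plots used Python 3.11.15, pandas 2.3.3 and matplotlib 3.10.9. Probe sets were not compared in level, and a dim gene is one with a mean below the median negative control row. The members, role lists and markers were chosen with earlier results of these data known. Values in every liver are given for members without overlap, the 3 members with the smallest p in each role list and the 3 brightest, and 4 genes are named per pathway list. Some further members and Rigi, Traf6 and marker genes were named after their values were seen. Samples labelled with the same number did not deviate together (r = -0.149 to -0.041), so they were not paired. Alternatives were other moderation, array weights, filters on dim genes, the mean of probe sets, other normalization, the replicate number as a block, a threshold of 0.1, single probe sets, and leaving out livers.
A planned search for the RING pattern in the proteins was not run, because protein sequences were not used here.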

Additional observations from a re-analysis of the deposited data

Results flagged for a closer look

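In 7 of the 126 groups of 4 livers (63 members, 2 groups each), or 5.56%, 1 liver stood apart by a gap over 0.829 of the group's range, and chance gives about 1 in 20. The liver that stood apart was treated replicate 1 for Trim10 (4.52, the next at 4.36), Trim16 (4.80, the next at 4.61) and Trim43c (3.19, the next at 3.07). Treated replicate 3 was low for Trim56 (6.94, the next at 7.12) and Trim80 (4.51, the next at 4.71), treated replicate 4 was high for Trim59 (4.33, the next at 4.13) and control replicate 1 for Trim71 (4.66, the next at 4.53). None of these genes was among the 8 without overlap. For the 19 sensing and interferon signalling genes, treated replicate 3 had a mean level of 0.279 relative to each gene's mean, with the other treated livers between 0.106 and 0.13.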

How the results depend on the processing

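Under every one of 17 alternatives to the limma fit, 1 of them (control replicate 3 and treated replicate 3 both left out) chosen after the data were seen, 0 members passed an adjusted p of 0.05, and the same holds for a threshold of 0.1 and for single probe sets. Of all genes, 1 of 30627 passed 0.05 without control replicate 4 and 1 without both replicates 3. Under the other alternatives to the fit 0 genes passed. Each member has 1 probe set, so testing single probe sets used the same member values. The smallest adjusted p of any member under any alternative was 0.155. The 8 members without overlap kept their direction in all alternatives in which they were tested. Except under other normalization, this was fixed by how they were chosen. Fewer or reweighted livers cannot reverse groups that do not overlap. With all 8 livers, 7 or 8 members had no overlap in either direction. Of these alternatives only other normalization can change an overlap, since the rest keep each member's values or remove dim genes. Quantile normalization and centring each array on its median both gave 7. With 1 or 2 livers left out there were 9 to 12, but smaller groups overlap less often: over all genes the count was 1351 with all livers and 1920 to 3550 with livers left out. At an unadjusted limma p under 0.05 there were 10 to 14 of the 63 members where no gene was left out, against 1718 to 2608 of 30627 genes. With genes below the 25th percentile of signal left out there were 12 of 54 members, against 1952 of 22970 genes. With genes below the median signal left out there were 10 of 31 members, against 1512 of 15314 genes. The median of the interferon-linked members was 0.41 with genes below the median signal left out, where 10 of the 14 stayed in the test, and ran from 0.25 without treated replicate 3 to 0.34 without treated replicate 2 when 1 liver was left out, and was 0.26 without both replicates 3. The median over all members lay between 0.00082 and 0.04. With the replicate block, 11 members were at an unadjusted p under 0.05 and Trim30d had an adjusted p of 0.471; the shared numbers are not a pairing and no liver correlated best with its own number. In 22 members the sign changed under at least 1 alternative.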
